A study of Mus musculus with 6 samples.

Results

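The genes Tff3, Tspan8, Prom1, Sox9, Sox4, Epcam, Spp1, Elf3 and Cd24a belong to bile duct, progenitor and mucosal epithelia, and their mRNA was followed in mouse liver tumours. They were taken by symbol, 9 of the 39179 genes listed. The tumours were raised in wildtype C57BL/6 mice by hydrodynamic injection, in which a large volume pushed quickly into a vein brings plasmids into liver cells, here hepatocytes. The oncogenes sat on transposons, elements that integrate into chromosomes. In 3 samples these encoded Myc with NrasG12V, an active form of the small GTPase Nras, and in the other 3 Myc with Akt1, a growth factor kinase. Both groups therefore carried Myc. The promoter of the transposons, the species of the cDNAs, the age of the mice and the time after injection are not stated in the labels. Whether each tumour sample is from its own mouse is not stated, and p-values measure only the spread between the samples, which may be technical. The samples were whole tumour RNA, and no liver without tumour was analysed here.

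Hepatocytes and cholangiocytes, the cells that line bile ducts, arise from the same fetal precursor, the hepatoblast. In injured or transformed liver, hepatocytes and duct cells can take up a mixed state in which genes of ducts and progenitors are read. Sox9 and Epcam are classical marks of that state, Prom1 and Cd24a are surface marks used to sort such cells, and Spp1 encodes a secreted protein of duct cells. Tff3, Tspan8 and Elf3 are better known from the gut and other mucosal surfaces.

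The libraries held 17881282 to 27865094 reads, and levels are in CPM, a read count divided by the library total so that libraries can be compared. A gene without reads could still be at 0.108 to 0.168 CPM (3 reads), counting error only. Albumin (Alb), the defining hepatocyte transcript, was abundant throughout, at 90716 to 123707 CPM in Myc/NrasG12V and 29894 to 38466 CPM in Myc/Akt1, without overlap (limma adjusted p = 0.184). All 14 hepatocyte markers were tested, 5 called toward Myc/NrasG12V and 3 toward Myc/Akt1, and their summed level was 154562 to 200302 CPM against 49227 to 66403 CPM. The part of hepatocyte content in the differences below was not tested. On the CPM scale the median log2 difference of all 14365 genes tested, Myc/NrasG12V minus Myc/Akt1, was -0.26, and it was between 0.00 and 0.05 with TMM, median-of-ratios or upper-quartile factors. Myc/NrasG12V replicate 3 lay away from the other 5 libraries on principal component 2, which held 11.6% of the variance. In such bulk samples, fewer cells of a type and less RNA per cell cannot be told apart.

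Of the 9 genes, 5 were higher in Myc/NrasG12V (Tff3, Tspan8, Prom1, Cd24a and Spp1) and 1, Elf3, was higher in Myc/Akt1. Sox9, Epcam and Sox4 did not pass the limma test over all genes at an adjusted p of 0.05. All 9 passed the filter on low values. Among all genes tested, 10.0% were called higher in Myc/NrasG12V, 29.5% higher in Myc/Akt1 and 39.5% in either direction. The groups did not overlap for 8 of the 9 genes, Elf3 toward Myc/Akt1 and 7 toward Myc/NrasG12V. Among all genes tested 52.7% did not overlap, 14.8% with Myc/NrasG12V higher and 38.0% with Myc/Akt1 higher. The median log2 difference of the 9 genes was 1.598. The 9 genes were chosen with earlier results of these data known, so these counts cannot measure an excess over all genes. With TMM, median-of-ratios or upper-quartile factors, with edgeR and with DESeq2, Sox9 and Epcam were also called, so that 7 genes were called toward Myc/NrasG12V and Elf3 toward Myc/Akt1. Without Myc/NrasG12V replicate 3 the numbers were 6 and 1, with Epcam added.

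**Figure D1:**
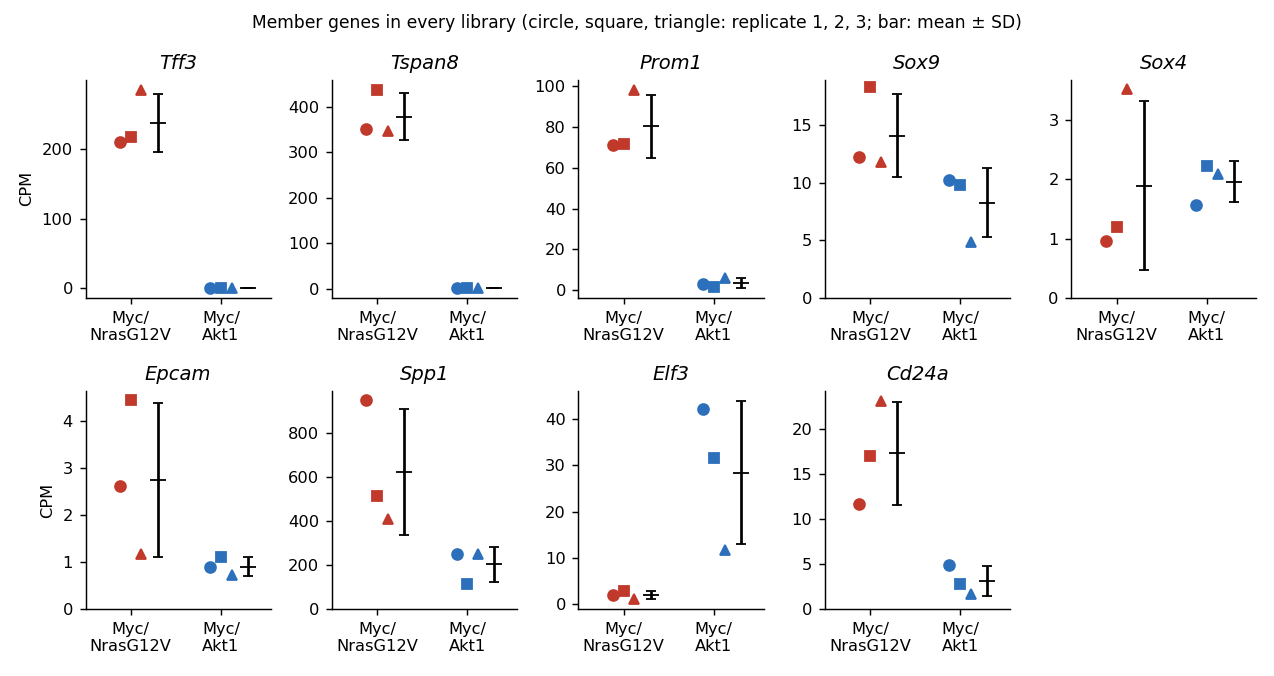
Level of each of the 9 genes in every library, in CPM on linear axes that differ between panels. Red marks are Myc/NrasG12V and blue marks Myc/Akt1, with circle, square and triangle for replicates 1, 2 and 3, and the black bar gives the mean ± SD of 3 libraries. Tff3, Tspan8 and Prom1 lie near 0 in Myc/Akt1, Elf3 lies near 0 in Myc/NrasG12V, and the groups overlap for Sox4.

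Tff3 encodes trefoil factor 3, a small secreted peptide that goblet cells release with mucin and that helps epithelia to close wounds. The gene (ENSMUSG00000024029) lies on chromosome 17, 31125306 to 31129646, minus strand, in GRCm38. It was at 209, 217 and 285 CPM in Myc/NrasG12V replicates 1, 2 and 3 and at 0.255, 0.144 and 0.409 CPM in Myc/Akt1. Every Myc/NrasG12V library thus held a high level of this transcript, while the Myc/Akt1 libraries held 6, 4 and 9 reads of it. The group means were 237 ± 41.6 and 0.269 ± 0.133 CPM (mean ± SD of 3 libraries). The log2 difference was 7.54, with a standard error of 0.21 and a limma adjusted p of 5.24e-07, and it ranked 5 from the top among all genes tested.

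The other trefoil genes lie beside Tff3 and were nearly silent. Tff2, 11.4 kb from Tff3, had 16 reads over the Myc/NrasG12V libraries and 10 over the Myc/Akt1 libraries. Tff1, a gastric peptide gene 31.7 kb away, had 2 reads over each group. Neither reached the filter, so neither was tested. Abcg1, a sterol transporter gene 7.32 kb away on the other side, was at 11.5 ± 1.04 against 7.41 ± 1.48 CPM (mean ± SD of 3 libraries), with a limma adjusted p of 0.0692.

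Tspan8 encodes a tetraspanin, a protein with 4 membrane passes that gathers integrins and EpCAM at the cell surface. The gene (ENSMUSG00000034127) lies on chromosome 10, 115816832 to 115849893, plus strand. It was at 351, 438 and 347 CPM in Myc/NrasG12V and at 1.57, 1.54 and 0.863 CPM in Myc/Akt1. No Myc/NrasG12V library came near a Myc/Akt1 library. The means were 378 ± 51.6 and 1.33 ± 0.400 CPM (mean ± SD of 3 libraries), and the log2 difference was 7.36, with a standard error of 0.20 and a limma adjusted p of 5.24e-07. The nearest protein-coding genes on either side were not called. Lgr5, a Wnt-dependent progenitor marker 229 kb away, was at 0.873 against 1.73 CPM with a limma adjusted p of 0.146. Ptprr, on the other side, had 14 reads over each group and was not tested.

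Prom1 encodes prominin 1 (CD133), a cholesterol-binding glycoprotein of membrane protrusions. The gene (ENSMUSG00000029086) lies on chromosome 5, 43993620 to 44102032, minus strand. It was at 71.2, 71.5 and 98.3 CPM in Myc/NrasG12V and at 2.88, 1.29 and 6.09 CPM in Myc/Akt1. Myc/Akt1 replicate 3 was the highest library of its group, yet all of that group lay far below the Myc/NrasG12V libraries. The means were 80.4 ± 15.5 and 3.42 ± 2.44 CPM (mean ± SD of 3 libraries), a 23.5-fold difference that became 38.5-fold without Myc/Akt1 replicate 3. The log2 difference was 4.34, with a standard error of 0.38 and a limma adjusted p of 1.38e-04. Prom2, the other prominin gene, had 27 reads over the Myc/NrasG12V libraries and 0 in Myc/Akt1, and was not tested.

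Cd24a encodes the mouse CD24 antigen, a short, heavily glycosylated surface peptide of progenitor cells and of several blood cell types. The gene (ENSMUSG00000047139) lies on chromosome 10, 43578284 to 43584265, plus strand. It was at 11.7, 17.0 and 23.2 CPM in Myc/NrasG12V and at 4.92, 2.84 and 1.68 CPM in Myc/Akt1. All 3 Myc/NrasG12V libraries lay above every Myc/Akt1 library, and Myc/NrasG12V replicate 3 was the highest library. The means were 17.3 ± 5.71 and 3.15 ± 1.64 CPM (mean ± SD of 3 libraries), a 5.50-fold difference with a log2 difference of 2.17, a standard error of 0.35 and a limma adjusted p of 0.00183.

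Neutrophil and erythroid genes were mostly called in the same direction as Cd24a. Of 13 neutrophil markers 12 were tested and 10 were higher in Myc/NrasG12V, 0 lower. Their summed level was 36.8, 78.8 and 223 CPM in Myc/NrasG12V replicates 1, 2 and 3, and 4.23 to 5.13 CPM in Myc/Akt1. Ly6g, a defining neutrophil gene, was close to 0 in both groups, with 5 and 4 reads. Of 12 erythroid markers 11 were tested, 8 were higher and 1, Tfrc, was lower, and the summed level was 409, 1279 and 2017 CPM in Myc/NrasG12V against 299 to 633 CPM in Myc/Akt1. Of 8 B cell markers 5 were tested, and limma called 0 in either direction (1 at an unadjusted p under 0.05, 1 by edgeR and 1 by DESeq2). Of 10 T and NK cell markers 9 were tested, 4 were higher in Myc/NrasG12V (Cd8a, Nkg7, Cd3g and Cd3d) and 1, Klrb1c, was lower, and the summed level was 36.0, 14.6 and 13.3 CPM in Myc/NrasG12V against 7.08 to 10.3 CPM in Myc/Akt1. In Myc/NrasG12V the libraries stood in the same order for Cd24a and for the neutrophil and erythroid sums. They stood in the opposite order for the T and NK cell sum and for the B cell sum (18.8, 12.1 and 8.11 CPM). In Myc/Akt1, Cd24a shared its order with the neutrophil sum, which varied little there, and not with the B cell or the T and NK cell sum. It also shared the order of the erythroid sum, but most of that sum was Tfrc, at 574, 435 and 194 CPM. The globin genes Hba-a1, Hba-a2, Hbb-bs and Hbb-bt were each highest in Myc/Akt1 replicate 3, where Cd24a was lowest. The part of blood cells in the Cd24a difference was not tested.

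The lectin genes whose products bind CD24 were at low levels. Selp, the platelet and endothelial P-selectin gene, was the only 1 of 3 tested that was called, and their median log2 difference was 0.76. It was at 3.72 ± 0.988 CPM in Myc/NrasG12V and 0.550 ± 0.0727 CPM in Myc/Akt1 (mean ± SD of 3 libraries, limma adjusted p = 8.10e-04). Without Myc/NrasG12V replicate 3, and with each of the 3 other scaling factors, 2 were called. Siglecg, a lectin gene of B cells and some macrophages, was at 0.522 against 0.354 CPM and did not pass.

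Spp1 encodes osteopontin, a secreted phosphoprotein that binds integrins and CD44 and is made by bile duct cells, activated macrophages and stellate cells. The gene (ENSMUSG00000029304) lies on chromosome 5, 104435118 to 104441050, plus strand. It was at 951, 517 and 409 CPM in Myc/NrasG12V and at 249.84, 115 and 249.99 CPM in Myc/Akt1. The transcript was abundant in both groups, which came closer to each other than for Tff3, Tspan8, Prom1, Cd24a or Elf3 but did not overlap. The means were 626 ± 287 and 205 ± 78.0 CPM (mean ± SD of 3 libraries), a 3.05-fold difference, with a log2 difference of 1.598, a standard error of 0.39 and a limma adjusted p of 0.0115.

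Macrophage genes stood as follows beside Spp1. All 12 markers were tested, 4 were higher in Myc/NrasG12V (Vsig4, Marco, Cd5l and Clec4f, genes of resident Kupffer cells) and 0 lower, and edgeR called 8. The summed level was 666, 411 and 375 CPM in Myc/NrasG12V replicates 1, 2 and 3 and 229 to 301 CPM in Myc/Akt1. Within Myc/NrasG12V, Spp1 and the macrophage sum stood in the same order, both highest in replicate 1. Within Myc/Akt1 they stood in the opposite order, with macrophage sums of 273, 301 and 229 CPM in replicates 1, 2 and 3. Spp1 was lowest in replicate 2 of that group and nearly equal in replicates 1 and 3. Gpnmb and Trem2, which mark macrophages that make osteopontin, were at 1.84 to 15.9 and 2.20 to 3.10 CPM in Myc/NrasG12V, and at 2.68 to 12.8 and 1.79 to 3.35 CPM in Myc/Akt1, so both overlapped between the groups. All 10 stellate cell and fibroblast markers were tested, 2 were higher in Myc/NrasG12V and 0 lower by limma (0 lower at an unadjusted p under 0.05), while edgeR called 3 and DESeq2 5 higher. The 2 called by limma were Reln, at 78.0 ± 10.6 against 14.3 ± 5.90 CPM, and Dcn, at 138 ± 15.8 against 53.6 ± 14.0 CPM (mean ± SD of 3 libraries). The summed level, 524 to 633 CPM in Myc/NrasG12V and 386 to 624 CPM in Myc/Akt1, overlapped. The part of macrophages and stellate cells in the Spp1 difference was not tested.

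The genes next to Spp1 on chromosome 5 were silent or not called. Its relatives Ibsp and Mepe had 0 reads in all 6 libraries, Dmp1 had 1 read over Myc/NrasG12V and 8 over Myc/Akt1, and Dspp had 1 and 0. Pkd2, a ciliary channel gene of duct cells 18.4 kb from Spp1, was at 36.5 against 34.1 CPM with a limma adjusted p of 0.770. Among 10 tested genes of osteopontin receptors, relatives and proteases that cleave it, 2 were higher in Myc/NrasG12V and 0 lower by limma (1 lower at an unadjusted p under 0.05, 0 by edgeR and 0 by DESeq2), with a median of 0.08 on the log2 scale. Itgb3, the beta subunit of the vitronectin receptor, was at 24.9 ± 8.69 against 4.999 ± 0.9752 CPM (mean ± SD of 3 libraries). Mmp7, matrilysin, was at 2.76 ± 1.26 against 0.0881 ± 0.0898 CPM (mean ± SD of 3 libraries). The count of 2 became 4 with TMM, median-of-ratios or upper-quartile factors, and without Myc/Akt1 replicate 3 limma called 2 genes lower, without Myc/NrasG12V replicate 3 it called 1 lower. Cd44 ran from 17.9 to 28.7 CPM in Myc/NrasG12V and from 11.5 to 77.4 CPM in Myc/Akt1, and the groups overlapped.

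Elf3, an epithelium-specific ETS transcription factor of gut, airway and duct lining, went the other way. The gene (ENSMUSG00000003051) lies on chromosome 1, 135253575 to 135258568, minus strand. It was at 1.77, 2.66 and 0.895 CPM in Myc/NrasG12V and at 42.2, 31.7 and 11.6 CPM in Myc/Akt1. Myc/Akt1 replicate 3 was the lowest of its group and still above every Myc/NrasG12V library. The means were 1.77 ± 0.884 and 28.5 ± 15.5 CPM (mean ± SD of 3 libraries), 16.0-fold higher in Myc/Akt1. The log2 difference was -3.28, with a standard error of 0.46 and a limma adjusted p of 9.39e-04.

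The other ETS factors of the ELF and epithelium-specific branches were not called. Of 6 such genes 4 were tested, and limma called 0 (0 at an unadjusted p under 0.05, 0 by edgeR and 1 by DESeq2), with a median log2 difference of 0.07. Ehf, the closest epithelial relative, was at 1.32 ± 1.01 against 0.920 ± 0.265 CPM (mean ± SD of 3 libraries), with an interval of the log2 difference from -0.47 to 0.87. Elf5, of mammary and placental epithelium, had 1 read over each group. Rnpep, an aminopeptidase gene 4.14 kb from Elf3, was also higher in Myc/Akt1, at 55.6 ± 4.28 against 24.5 ± 3.44 CPM (mean ± SD of 3 libraries), with a limma adjusted p of 0.00129. Of the other called neighbours, 2 had the opposite sign to the gene beside them, of which Epcam was itself not called. 1700021F05Rik, 37.3 kb from Cd24a, was higher in Myc/Akt1, at 37.8 ± 1.83 against 16.1 ± 1.26 CPM (limma adjusted p = 0.00104), as was the calmodulin gene Calm2, 189 kb from Epcam, at 195 ± 22.3 against 111 ± 1.62 CPM (limma adjusted p = 0.00456). Kcnj2, a potassium channel gene and the nearest protein-coding gene on 1 side of Sox9 at 1705 kb, was higher in Myc/NrasG12V, at 7.98 ± 4.87 against 0.936 ± 0.512 CPM (limma adjusted p = 0.00591). Rnpep and the other neighbours were looked up after the values of the 9 genes were known.

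Promoter sequence is shown for 3 genes that differed, Tspan8 and Spp1 (higher in Myc/NrasG12V) and Elf3 (higher in Myc/Akt1), so that the letters upstream of genes with opposite differences can be compared. The stretches come from RefSeq windows of GRCm38.p6, were cut to bases outside any GENCODE M21 exon, and are written 5′ to 3′ on the gene's strand. Capitals mark matches to any of the 4 motifs searched. The HNF1 letters GTTAAT were planned too but were not searched, so they are not marked. They are chr10:115817034-115817270 (plus), chr5:104434861-104435110 (plus) and chr1:135258569-135258722 (minus). The RefSeq start of Tspan8 lies inside the GENCODE span of the gene, so its stretch is intronic there, while the other stretches lie upstream.
Tspan8: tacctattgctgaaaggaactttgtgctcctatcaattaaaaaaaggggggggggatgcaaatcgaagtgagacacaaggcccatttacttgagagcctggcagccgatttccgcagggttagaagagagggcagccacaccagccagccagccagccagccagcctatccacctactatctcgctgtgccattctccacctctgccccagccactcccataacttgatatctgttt
Spp1: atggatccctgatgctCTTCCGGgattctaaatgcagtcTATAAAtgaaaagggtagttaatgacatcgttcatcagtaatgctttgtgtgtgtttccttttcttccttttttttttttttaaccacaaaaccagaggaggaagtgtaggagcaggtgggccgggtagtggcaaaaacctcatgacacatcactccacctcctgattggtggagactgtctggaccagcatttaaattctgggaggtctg
Elf3: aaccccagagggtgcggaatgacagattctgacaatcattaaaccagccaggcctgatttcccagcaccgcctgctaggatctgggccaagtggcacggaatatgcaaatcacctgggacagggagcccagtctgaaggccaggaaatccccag

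Windows of 250 bases before and 50 after the start were found for 6 of the 9 genes, Tspan8, Prom1, Sox4, Epcam, Spp1 and Elf3, and were searched on both strands. The AP-1 letters TGANTCA, bound by factors downstream of Ras, were found once, as TGACTCA in the Prom1 window, beginning 88 bases before the start. They occur in 7.81% of all 32851 mouse windows. The ETS letters CCGGAAG were found in the Spp1 window only (8.86% of all windows), as were the TATA box letters TATAAA (13.6%), beginning 234 and 211 bases before the start. The SOX letters AACAAT were in none of the 6 windows and in 10.7% of all windows. The motifs do not overlap each other in these windows. Tspan8, Elf3, Epcam and Sox4 held none of the 4 motifs, which says only that these letters are not in this window.

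Sox9, Epcam and Sox4 were the genes below the test's threshold. Sox9, the transcription factor that sets up and maintains bile ducts (ENSMUSG00000000567, chromosome 11, 112782224 to 112787760, plus strand), was at 12.2, 18.2 and 11.7 CPM in Myc/NrasG12V and at 10.2, 9.76 and 4.82 CPM in Myc/Akt1. Its groups lay side by side without overlap, with a gap smaller than the spread within each group. The log2 difference was 0.74 (95% interval 0.03 to 1.44, limma adjusted p = 0.0919). With the 3 other scaling factors it was 1.02 to 1.07 and called (limma adjusted p = 0.0310 to 0.0401), and with edgeR the adjusted p was 0.0406.

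Epcam, the adhesion molecule used to isolate duct and progenitor cells (ENSMUSG00000045394, chromosome 17, 87635979 to 87651129, plus strand), was at 2.63, 4.45 and 1.17 CPM in Myc/NrasG12V and at 0.891, 1.11 and 0.727 CPM in Myc/Akt1. These are 21 to 97 reads in a Myc/NrasG12V library and 16 to 31 in a Myc/Akt1 library. Myc/NrasG12V replicate 3 was hardly above the highest Myc/Akt1 library. The log2 difference was 0.88 (95% interval 0.15 to 1.61, limma adjusted p = 0.0577). It was called with the 3 other scaling factors (limma adjusted p = 0.0407 to 0.0481), with edgeR (adjusted p = 0.0258) and without Myc/NrasG12V replicate 3 (limma adjusted p = 0.00536). Without Myc/NrasG12V replicate 2 the log2 difference was 0.56 with a limma adjusted p of 0.151.

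Sox4, a transcription factor of many progenitor and immature cells (ENSMUSG00000076431, chromosome 13, 28948919 to 28953713, minus strand), was at 0.955, 1.19 and 3.52 CPM in Myc/NrasG12V and at 1.57, 2.23 and 2.09 CPM in Myc/Akt1. Myc/NrasG12V held both the lowest and the highest libraries, so the groups overlapped. The log2 difference was -0.13 (95% interval -0.87 to 0.60, limma adjusted p = 0.770). Its sign turned with the 3 other scaling factors, with edgeR and DESeq2, and without Myc/NrasG12V replicate 1 (0.10) or 2 (0.01), and no alternative called it.

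**Figure D2:**
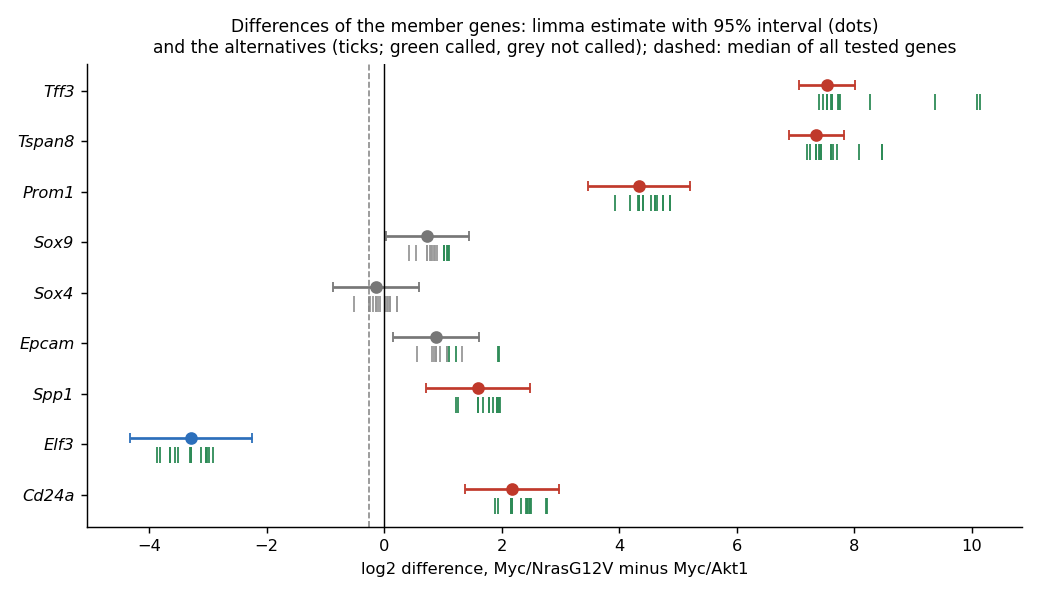
Difference of each gene between the groups, as the log2 difference Myc/NrasG12V minus Myc/Akt1. Dots with bars are the limma estimates with their 95% intervals (red higher in Myc/NrasG12V, blue higher in Myc/Akt1, grey not called), ticks are the alternatives (green called, grey not), and the dashed line is the median of all genes tested, -0.26. Tff3, Tspan8, Prom1, Spp1, Elf3 and Cd24a have green ticks only, Sox9 and Epcam have both kinds, and Sox4 has grey ticks on both sides of 0.

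Levels of different genes were compared per kilobase of exon. In Myc/NrasG12V, Tff3 (481 ± 84.4 CPM per kb, mean ± SD of 3) stood first, then Spp1 (379.7 ± 174 CPM per kb, mean ± SD of 3) and Tspan8 (222 ± 30.3 CPM per kb, mean ± SD of 3), and neighbours among these overlapped. Prom1 (11.2 CPM per kb), Cd24a (6.71 CPM per kb), Sox9 (3.40 CPM per kb) and Epcam (1.25 CPM per kb) followed, each clear of the next. Elf3 (0.801 CPM per kb) overlapped with Epcam, and Sox4 (0.394 CPM per kb) with Elf3. In Myc/Akt1 the order was Spp1 (124 ± 47.3 CPM per kb, mean ± SD of 3), Elf3 (12.8 ± 7.01 CPM per kb, mean ± SD of 3) and Sox9 (2.00 ± 0.725 CPM per kb, mean ± SD of 3), where Spp1 was clear of Elf3 and Elf3 of Sox9. Cd24a overlapped with Sox9. The 6 genes below Sox9 lay between 0.409 CPM per kb for Sox4 and 1.22 CPM per kb for Cd24a, and neighbours among them overlapped. Tff3 stood above 99.4% of tested genes of known exon length in Myc/NrasG12V and above 15.8% in Myc/Akt1, whereas Spp1 stood above 99.2% and 97.3%.

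**Figure D3:**
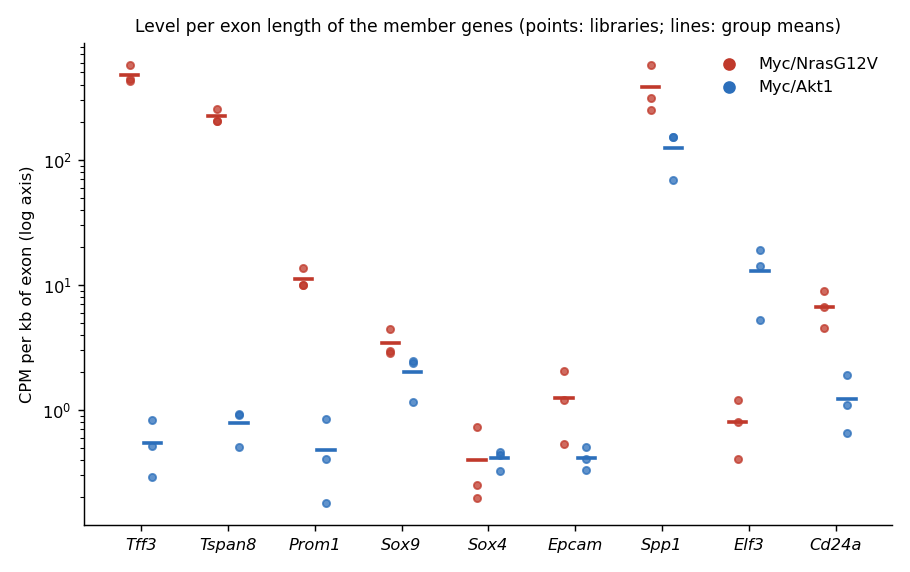
Level of the 9 genes in CPM per kb of exon, on a log axis. Points are libraries (red Myc/NrasG12V, blue Myc/Akt1) and lines are group means of 3 libraries. Tff3, Spp1 and Tspan8 are the highest in Myc/NrasG12V, and only Spp1 is above 100 CPM per kb in Myc/Akt1.

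Libraries differed within a group in different ways for different genes. The ratio of highest to lowest Myc/NrasG12V library was 1.26 for Tspan8, 1.36 for Tff3 and 1.38 for Prom1, against 3.69 for Sox4 and 3.79 for Epcam. Within Myc/NrasG12V, replicate 2 was the highest library for Tspan8, Sox9, Epcam and Elf3, replicate 3 for Tff3, Prom1, Sox4 and Cd24a, and replicate 1 for Spp1. So the genes called higher in Myc/NrasG12V did not peak in the same library.

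Likeness was measured as the root mean square difference between mean-centred log2(CPM + 1) profiles over the 6 libraries, against 10406 genes whose mean over the libraries reached 5 CPM. It describes these libraries and was not tested. The gene nearest to Tff3 was Tspan8, at 0.33 log2 units, and the next was the protease inhibitor gene A2m at 0.47. For Tspan8 the order was A2m (0.32) and Tff3 (0.33). Prom1 was nearest to Ace, the angiotensin-converting enzyme gene (0.41), and Bex1 (0.43). Cd24a was nearest to Tc2n (0.23) and Inhbb (0.24), and Spp1 to Hectd2 (0.26) and Mdm2 (0.34). Elf3 was nearest to Esco2 (0.15), a cohesin acetyltransferase gene, and Top2a (0.16), a topoisomerase gene, both of dividing cells. Sox9 was nearest to Armcx4 (0.11) and Ero1l (0.18), Epcam to Timp3 (0.20) and Slc35f5 (0.21), and Sox4 to Brms1l (0.07) and Bcap29 (0.09).

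Of 22 genes of bile duct epithelium outside the 9, 17 were tested, 2 were higher in Myc/NrasG12V, 2 were higher in Myc/Akt1 and 13 did not pass, with a median log2 difference of 0.21. This and the following lists stand beside 10.0% of all genes called toward Myc/NrasG12V and 29.5% toward Myc/Akt1, and beside the median of all genes, -0.26. The duct count toward Myc/NrasG12V was near its background share, and that toward Myc/Akt1 was below it. Anxa4, an annexin of duct cells, was at 204 ± 29.3 against 115 ± 9.07 CPM (mean ± SD of 3 libraries), and the mucin gene Muc1 at 1.95 ± 1.31 against 0.5003 ± 0.213 CPM (mean ± SD of 3 libraries). Toward Myc/Akt1, the glucose transporter gene Slc5a1 was at 14.6 against 2.35 CPM, and Pkhd1, the fibrocystin gene of duct cilia, at 20.9 against 9.81 CPM. The call of Pkhd1 ended with the 3 other scaling factors (limma adjusted p = 0.0851 to 0.0961) and without Myc/Akt1 replicate 1 (0.0738), and that of Muc1 without any 1 of 5 libraries, all but Myc/NrasG12V replicate 3 (limma adjusted p = 0.0844 to 0.157). The count toward Myc/NrasG12V fell to 1 without any 1 of 4 libraries (replicate 1 of either group, the second of Myc/NrasG12V, the third of Myc/Akt1) and rose to 4 without Myc/NrasG12V replicate 3, and that toward Myc/Akt1 fell to 1 without Myc/Akt1 replicate 1.

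The duct keratins were low. Krt7 was at 1.05, 3.12 and 1.06 CPM in Myc/NrasG12V and at 0.509, 0.538 and 0.818 CPM in Myc/Akt1 (limma adjusted p = 0.0919). Krt19 was at 1.24, 6.57 and 0.727 CPM and at 0.382, 1.26 and 1.23 CPM (limma adjusted p = 0.309). Myc/NrasG12V replicate 2, the highest library for Epcam and Sox9, was also the highest of its group for 11 of the 22 duct genes, Krt7, Krt19 and Muc1 among them, and not for the other 11. It was the highest as well for 4 of 5 mesothelial markers, genes of the liver's surface lining that also holds keratins, with a summed level of 7.85 CPM against 1.24 and 1.90 CPM in replicates 1 and 3 and 2.27 to 6.03 CPM in Myc/Akt1. Such counts were also seen in Myc/Akt1, where replicate 2 was highest for 11 of the 22 duct genes and replicate 1 for 4 of 5 mesothelial markers. Among these markers Lrrn4 was higher in every Myc/Akt1 library (0.454 to 2.16 CPM) than in Myc/NrasG12V replicate 2 (0.275 CPM), and Wt1 was highest in Myc/NrasG12V replicate 3. The part of these cells in the Epcam and Sox9 values was not tested. Summed over 10 cholangiocyte markers, the level was 40.0 to 76.4 CPM in Myc/NrasG12V and 77.2 to 102 CPM in Myc/Akt1. Of 7 tested, 1 was higher (Muc1) and 1 lower (Pkhd1) in Myc/NrasG12V. The receptor gene Sctr and the channel gene Cftr, defining for cholangiocytes, had 7 and 14 reads over Myc/NrasG12V and 9 and 16 over Myc/Akt1.

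**Figure D4:**
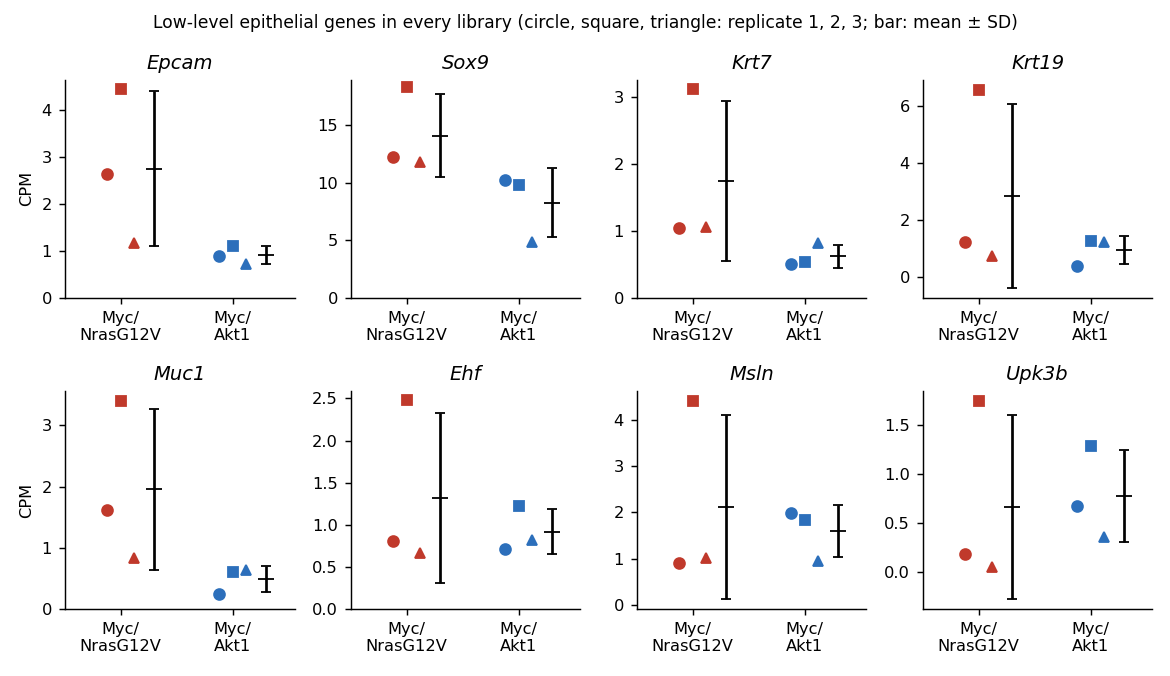
Epcam, Sox9, the duct keratins Krt7 and Krt19, Muc1, Ehf and the mesothelial genes Msln and Upk3b in every library, in CPM on linear axes that differ between panels. Red marks are Myc/NrasG12V and blue marks Myc/Akt1, with circle, square and triangle for replicates 1, 2 and 3, and the black bar is the mean ± SD of 3 libraries. The genes were chosen after their values were seen, as ones in which Myc/NrasG12V replicate 2 (red square) is the highest mark.

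Of 17 hepatic progenitor genes 14 were tested, 6 were higher in Myc/NrasG12V and 1, Lgals3, was higher in Myc/Akt1, with a median log2 difference of 0.63. The 7 not called had log2 differences of -0.71 (Cd44), -0.60 (Igf2bp3), -0.56 (Lgr5), -0.51 (Itga6), -0.26 (Axl), 0.06 (Jag1) and 1.20 (St14). Igdcc4, a surface protein of fetal liver stem cells, was at 79.3 ± 24.6 against 3.87 ± 1.36 CPM (mean ± SD of 3 libraries), a 20.5-fold difference with a limma adjusted p of 5.39e-05. Dlk1, the hepatoblast marker, had 1253 reads over Myc/NrasG12V and 0 in Myc/Akt1, and the keratin Krt23 was 9.72-fold and the iron-binding lipocalin Lcn2 4.83-fold higher. The call of Lgals3 ended with the 3 other scaling factors and when replicate 1 or 2 of either group was left out. When replicate 3 of either group was left out, 2 genes were called higher in Myc/Akt1.

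Mucosal secretory genes other than Tff3 were mostly not measured at a testable level. Of 23 genes, 5 had 0 reads in all libraries (Agr3, Reg3b, Reg3g, Gkn1 and Gkn2) and 6 were tested, 1 of them called toward each group, with a median log2 difference of -0.84. Spink1, a trypsin inhibitor gene, was at 72.7, 62.8 and 10.01 CPM in Myc/NrasG12V and at 5.47, 3.09 and 6.77 CPM in Myc/Akt1 (limma adjusted p = 0.0127, or 0.0501 and not called without Myc/Akt1 replicate 2). Muc13, a transmembrane mucin gene, was higher in Myc/Akt1, at 2.79 ± 1.71 against 0.4995 ± 0.185 CPM (mean ± SD of 3 libraries), with a limma adjusted p of 0.0163. Its call ended when Myc/NrasG12V replicate 1 was left out (limma adjusted p = 0.0550) and when Myc/Akt1 replicate 2 was (0.0522), and without Myc/Akt1 replicate 1, 3 genes were called on that side. Of 8 pancreatic acinar and gut markers 3 were tested, with a median log2 difference of -1.76. Limma called Cela1 higher in Myc/NrasG12V (27.2 against 9.42 CPM). It called Lgals4 (40.9 against 11.6 CPM) and Fabp2 (135 against 29.8 CPM) higher in Myc/Akt1, while edgeR called 1 in each direction.

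Of 20 genes that set hepatocyte or biliary fate, the regulators around Sox9 and Sox4, 18 were tested, 3 called toward Myc/NrasG12V and 2 toward Myc/Akt1, with a median log2 difference of -0.13. Tgfbr2, the TGF-beta receptor gene, was at 133 ± 48.1 against 36.8 ± 1.58 CPM (mean ± SD of 3 libraries), with a limma adjusted p of 9.31e-04. Notch1 was at 35.2 against 17.0 CPM and Klf6 at 177 against 102 CPM, and only Tgfbr2 was called toward Myc/NrasG12V without Myc/NrasG12V replicate 2. The call of Notch1 also ended when replicate 1 of either group, or the third Myc/Akt1 library, was left out. That of Klf6, whose groups overlapped, also ended when replicate 3 of either group, or the second Myc/Akt1 library, was left out. Tbx3 and Cebpa, called higher in Myc/Akt1 at 5.19 against 2.51 and 129 against 74.2 CPM, were not called with the 3 other scaling factors or without any 1 of the Myc/Akt1 libraries. Without Myc/NrasG12V replicate 1 or 2, 1 gene of the list was called toward Myc/Akt1.

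The remaining families of the 9 genes were read in the same way. Of 18 other Sox genes 7 were tested, and limma called 0 (1 at an unadjusted p under 0.05, toward Myc/Akt1, and 1 each by edgeR and DESeq2, toward Myc/NrasG12V), with a median log2 difference of -0.37. Sox12, of the same subgroup as Sox4, was at 3.92, 3.67 and 16.1 CPM in Myc/NrasG12V and 11.3, 12.7 and 17.3 CPM in Myc/Akt1, and was called without Myc/NrasG12V replicate 3 (limma adjusted p = 0.00180); without Myc/NrasG12V replicate 1, 1 Sox gene was called toward Myc/Akt1. Sox11, of that subgroup too, had 0 reads in Myc/NrasG12V and 2 in Myc/Akt1. Of 28 other tetraspanin genes 25 were tested, 10 called toward Myc/NrasG12V and 4 toward Myc/Akt1, with a median log2 difference of 0.31. Tspan33, a tetraspanin of red cell precursors, was 5.86-fold higher, at 33.8 ± 7.19 against 5.76 ± 0.698 CPM (mean ± SD of 3 libraries). Cd9 was 2.95-fold, Tspan4 2.73-fold and Tspan2 5.27-fold higher. The 10 became 5 when Myc/NrasG12V replicate 1 was left out, and 6 when Myc/NrasG12V replicate 2 or the first Myc/Akt1 library was. The 4 became 1 without Myc/Akt1 replicate 1 or 2, and 0 with the 3 other scaling factors.

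Among epithelial junction genes and partners of EpCAM, 21 of 24 were tested, 6 called toward Myc/NrasG12V and 4 toward Myc/Akt1, with a median log2 difference of 0.02. Cdh17, the liver-intestine cadherin, was at 61.2, 90.0 and 83.6 CPM in Myc/NrasG12V and had 3 reads over Myc/Akt1. The ratio of pooled reads was 1913, with an exact 95% counting interval from 654 to 9280, and the limma adjusted p was 3.46e-06. Cdh1, the E-cadherin of epithelial junctions, was at 168 ± 3.50 against 59.1 ± 20.4 CPM (mean ± SD of 3 libraries), and Spint1, a protease inhibitor that guards EpCAM from cleavage, at 1.45 against 0.321 CPM. Toward Myc/Akt1, Psen2, a subunit of the protease that cuts the EpCAM tail, was at 196 ± 32.0 against 64.6 ± 12.8 CPM (mean ± SD of 3 libraries), and the desmosome gene Dsp at 115 against 42.6 CPM. The count toward Myc/Akt1 was 2 with the 3 other scaling factors, and also when replicate 1 of either group or the second Myc/Akt1 library was left out.

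**Figure D5:**
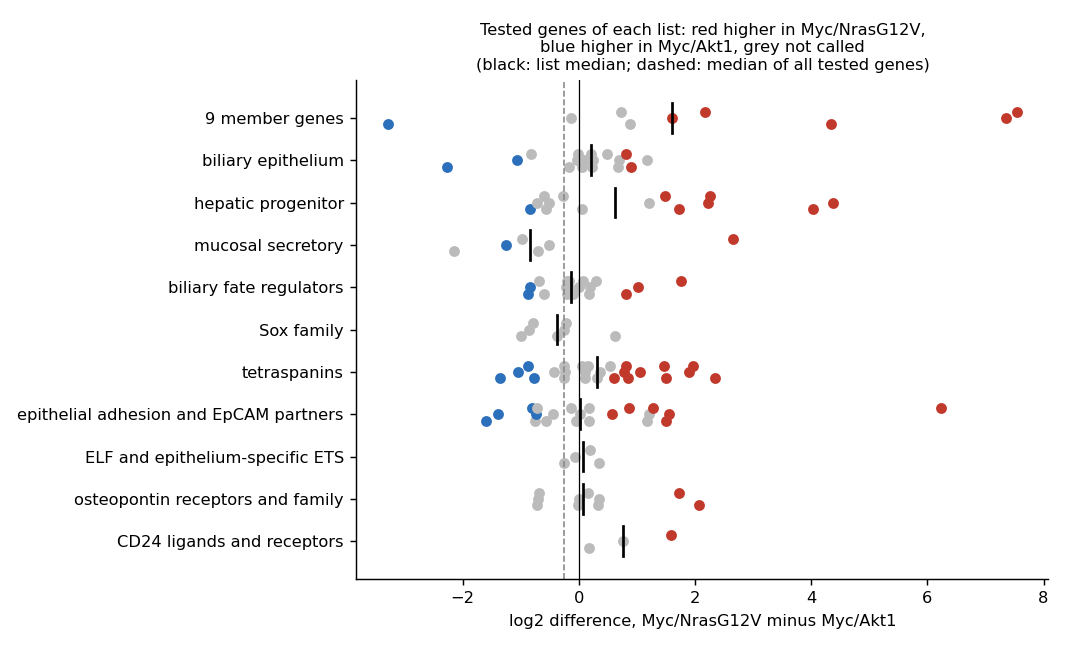
Log2 difference Myc/NrasG12V minus Myc/Akt1 of every tested gene in the 9 genes and in each other list, with red for called higher in Myc/NrasG12V, blue for called higher in Myc/Akt1 and grey for not called. Black lines are list medians and the dashed line is the median of all genes tested, -0.26. The medians of the other lists lie between -0.84 for mucosal secretory genes and 0.76 for CD24 ligands and receptors, against 1.598 for the 9 genes. The 9 genes and the lists were chosen with earlier results of these data known, so the medians are a description only.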

How the data were processed

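Poly(A)-selected RNA of the 6 tumour samples was read from one end with a strand-keeping kit, per the labels. The deposited value of each gene and library is CPM, although the column is named reads. Per the submitters' processing notes the authors used STAR 2.6.1c, Subread 1.6.3, edgeR 3.22.5 and GRCm38; the annotation release and strand setting are not given in the sources used here. All CPM values were whole multiples of 1 read within 0.01 read, so whole reads were recovered for edgeR 4.0.16 and DESeq2 1.42.0.

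Groups were compared with limma 3.58.1 in R 4.3.3 (two-sided, eBayes with a trend) on log2(CPM + 1), with Benjamini-Hochberg adjustment over the 14365 genes that passed filterByExpr (0.457 CPM in 3 libraries and 15 reads in total). Intervals are 95% limma intervals, folds are ratios of mean CPM, and an exact permutation test of 1 gene could not go below p = 0.1. The counts of lists and of cell type markers come from the same fit. The 9 genes and all lists were chosen with earlier results of these data known. Named from each list were its called genes of lowest adjusted p, at most 4, and close relatives of the 9 genes; exceptions, such as genes beside a member on the chromosome, markers and genes named for a low level, were chosen after their values were seen. Exon lengths and positions are from GENCODE M21, promoters from RefSeq. The fit was tested on simulated data that held no shift of the median between the groups, so that test does not cover the shift seen on the CPM scale. Some items of the lists, though counted in them, are not reported here by name.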

Additional observations from a re-analysis of the deposited data

How the results depend on the processing

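Tff3, Tspan8, Prom1, Spp1, Cd24a and Elf3 kept their direction and their call in all 17 alternatives. Sox9 was called in 5 of 17 and Epcam in 7 of the 16 that tested it. Sox4 turned sign with factors from TMM (0.057), the median of ratios (0.060) or the upper quartile (0.094), edgeR (0.21), DESeq2 (0.22) and without Myc/NrasG12V replicate 1 (0.10) or 2 (0.01), with a range from -0.51 to 0.10 over the left-out libraries. Ehf turned to -0.13 without Myc/NrasG12V replicate 2, its left-out range being -0.13 to 0.40.

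Below, counts toward Myc/NrasG12V and toward Myc/Akt1 are called higher and lower. Over all genes, 1437 higher and 4240 lower became 2331 and 2565 with TMM, 2366 and 2515 with median-of-ratios and 2544 and 2343 with upper-quartile factors, 2381 and 2512 with edgeR, and 2752 and 2791 with DESeq2, and 956 were higher with a mean of at least 5 CPM.

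With each of the 3 factors, biliary genes lower were 1, progenitor, fate and tetraspanin genes lower 0, adhesion genes lower 2, Sox genes higher 1, osteopontin genes higher 4 and CD24 genes higher 2. edgeR and DESeq2 gave 4 and 5 biliary genes higher and 1 lower, 0 progenitor, fate and tetraspanin genes lower, 2 adhesion genes lower, 1 Sox gene higher and 2 CD24 genes higher, and DESeq2 also 4 osteopontin genes and 1 ELF gene higher. A mean of at least 5 CPM gave 1 biliary, 3 adhesion, 1 osteopontin and 0 CD24 genes higher, and 2 progenitor, 0 mucosal, 1 fate and 2 tetraspanin genes lower. With no filter, progenitor and fate genes lower were 0 and Sox genes lower 1. limma without the trend gave 1 biliary gene higher, and 2 progenitor genes and 1 fate gene lower. The causes were not tested.

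Leaving out each library in turn gave these ranges. Members were 5 to 6 higher and 1 lower, and all genes 954 to 1545 higher and 2871 to 4808 lower. Biliary genes were 1 to 4 higher and 1 to 3 lower, progenitor genes 0 to 2 lower, mucosal genes 0 to 1 higher and 0 to 3 lower, fate genes 1 to 3 higher and 0 to 3 lower, Sox genes 0 to 1 lower, tetraspanins 5 to 10 higher and 1 to 5 lower, adhesion genes 2 to 5 lower, osteopontin genes 0 to 2 lower and CD24 genes 1 to 2 higher. The 954 was without Myc/Akt1 replicate 1.

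Libraries of the same number deviated from their group means with correlations of -0.08, 0.11 and 0.08, so the numbers were not taken to pair the samples, and not every library correlated best with its own number. With the replicate block, members were 6 higher, Epcam added, and 1 lower, and mucosal and Sox genes lower were 3 each. Depth limits the genes with few reads, Epcam and Sox4 among the members.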
